A study of Rattus norvegicus with 16 samples.

Results

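The 41 cell cycle and proliferation genes described here were chosen by name: 11 of DNA replication and nucleotide supply, 18 of mitosis, and 12 cyclins, a kinase, transcription regulators and inhibitors. All 41 are on the array, with 55 probes, among 20571 genes that were tested, and 39 of them passed the filter on dim probes. They were measured in RNA of cells from olfactory mucosa cultures of male Fischer rats, which a flow cytometer had separated into 4 populations. Each population has 4 arrays, of 4 samples that the labels call biological replicates. CD90 cells were sorted for the surface protein encoded by Thy1, and p75 cells for the neurotrophin receptor encoded by Ngfr. TRKA cells are called as the labels call them, and TRKA-TGF cells are TRKA cells conditioned with TGF-a, transforming growth factor alpha. CD90, p75 and TRKA cells shared 1 culture protocol. The sources used here give no age, culture time or TGF-a dose. The RNA was amplified by PCR before labelling, per the labels.

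A dividing cell passes from the first gap phase through DNA synthesis and the second gap phase to mitosis. D-type cyclins carry signals from growth factors to the retinoblastoma protein, whose release of E2F factors turns on genes of DNA synthesis, and inhibitors such as p21 and p27 hold cyclin-dependent kinases in check. Genes of mitosis are switched on later, largely through a MuvB complex with B-Myb and FoxM1 that acts at CHR elements near the start site, often beside CCAAT boxes bound by NF-Y. Olfactory ensheathing cells and fibroblasts both divide in such cultures, and TGF-a, a ligand of the epidermal growth factor receptor, is known as a mitogen of many cells.

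Levels are on a log2 scale on which 0 is the 75th percentile of each array's own signals. A difference is written as ± the standard error (SE) of the limma fit over all 16 arrays, and is positive where the population named first is higher. Calls were made at 0.05 on the adjusted p of limma (Benjamini-Hochberg over the 20571 genes). A probe that the scanner software marked as well above background on no array of a group is given as a bound. Where only some arrays of a group measured it, the difference includes readings near background. Their number is given for many such genes but not for all. For Ccnb2, Cdk1 and Ccna2 it is not given, though each has readings as dim as those of unmeasured probes. Slide 1 carried the p75 and TRKA samples, slide 2 those of CD90 and TRKA-TGF. TRKA-TGF versus CD90 and TRKA versus p75 are therefore comparisons within a slide, where each group fills a row of its own and row and group cannot be told apart. For the remaining 4 comparisons the slide differs with the group, and their parts cannot be told apart.

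Fewer probes were measurable in TRKA cells. Between 51.4% and 57.5% of spots were well above background on TRKA arrays, against 66.4% to 72.4% on the other 12. On a list of 10 olfactory ensheathing and Schwann glia markers, the mean level per array was 2.73 to 2.97 in p75, −5.19 to −4.76 in CD90, −5.74 to −5.12 in TRKA and −3.40 to −2.28 in TRKA-TGF. On 10 fibroblast markers it was −0.18 to 1.01, 4.08 to 4.44, −3.94 to −1.36 and −3.59 to −2.09, and on 10 macrophage and myeloid markers −3.14 to −2.06, −0.99 to −0.14, 4.62 to 5.26 and 3.14 to 3.21, in the same order. On 6 epithelial markers it lay between −6.27 and −4.10 on the 16 arrays. The macrophage and myeloid markers were high in both TRKA populations, and the glia and fibroblast markers stood highest in p75 and CD90. Well above background per array were 10, 6, 3 to 6 and 8 to 10 of the 10 glia markers, 8 to 10, 10, 4 to 7 and 7 to 8 of the 10 fibroblast markers and 8 to 9, 9 to 10, 10 and 9 of the 10 macrophage and myeloid markers. Cd163 was well above background on 0 TRKA-TGF arrays and Ptprc on 0 p75 arrays. In each comparison at least 1 of the glia, fibroblast and macrophage lists separated the populations without overlap, and their part in these differences was not tested. In sorted populations, fewer cycling cells and less of a transcript per cell cannot be told apart.

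Promoters are shown first, because the members fall into groups by the short elements near their start sites as well as by role. Of the 41 members, 31 have an entry in the RefSeq promoter table (GRCr8), which runs from 250 bases before to 50 bases after the start. Both strands were searched for the CHR element (TTTGAA or TTTAAA), the CCAAT box (CCAAT) and the E2F site (TTCCCGC or TTCGCGC or TTGCCGC or TTGGCGC), and matches may overlap each other. The capitals mark matches, written 5′ to 3′ in the direction of the gene. The first 4 belong to members called lower in TRKA-TGF than in CD90, and the fifth to a replication gene with E2F sites. The last, Cdkn1a, was also called lower in that comparison and has none of the 3 motifs in the window.
Top2a, chr10:84473044-84473343, minus strand: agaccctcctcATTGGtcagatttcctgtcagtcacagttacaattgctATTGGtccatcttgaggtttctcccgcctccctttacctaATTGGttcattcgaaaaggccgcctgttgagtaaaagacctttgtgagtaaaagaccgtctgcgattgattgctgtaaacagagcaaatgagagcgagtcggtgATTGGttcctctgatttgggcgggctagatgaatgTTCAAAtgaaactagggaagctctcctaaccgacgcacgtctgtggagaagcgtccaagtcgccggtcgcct
Cenpf, chr13:103760837-103761136, minus strand: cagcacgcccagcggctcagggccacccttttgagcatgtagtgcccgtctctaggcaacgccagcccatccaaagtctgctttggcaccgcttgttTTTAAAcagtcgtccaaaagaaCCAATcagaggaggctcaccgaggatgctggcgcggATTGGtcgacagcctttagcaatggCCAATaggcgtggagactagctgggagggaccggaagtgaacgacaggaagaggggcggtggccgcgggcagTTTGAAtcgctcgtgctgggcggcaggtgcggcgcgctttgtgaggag
Mki67, chr1:199952544-199952843, minus strand: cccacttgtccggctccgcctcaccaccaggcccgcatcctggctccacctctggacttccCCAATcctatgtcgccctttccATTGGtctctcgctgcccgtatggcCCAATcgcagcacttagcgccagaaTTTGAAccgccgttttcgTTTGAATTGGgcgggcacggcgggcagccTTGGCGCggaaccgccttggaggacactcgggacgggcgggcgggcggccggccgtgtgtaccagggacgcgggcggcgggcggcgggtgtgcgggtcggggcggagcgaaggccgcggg
Ccnb1, chr2:33655176-33655475, minus strand: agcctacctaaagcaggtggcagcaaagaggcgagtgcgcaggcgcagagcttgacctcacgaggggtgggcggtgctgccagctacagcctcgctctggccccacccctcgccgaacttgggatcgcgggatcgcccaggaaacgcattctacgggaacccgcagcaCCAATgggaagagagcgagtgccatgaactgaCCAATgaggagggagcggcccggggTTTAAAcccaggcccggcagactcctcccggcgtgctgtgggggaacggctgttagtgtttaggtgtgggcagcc
Rrm1, chr1:166235654-166235953, plus strand: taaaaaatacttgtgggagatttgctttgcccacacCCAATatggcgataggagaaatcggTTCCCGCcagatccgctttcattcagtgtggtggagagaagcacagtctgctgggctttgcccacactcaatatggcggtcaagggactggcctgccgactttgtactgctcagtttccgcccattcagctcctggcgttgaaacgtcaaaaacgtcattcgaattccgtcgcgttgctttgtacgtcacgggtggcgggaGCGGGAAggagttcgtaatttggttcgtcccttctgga
Cdkn1a, chr20:7150682-7150981, plus strand: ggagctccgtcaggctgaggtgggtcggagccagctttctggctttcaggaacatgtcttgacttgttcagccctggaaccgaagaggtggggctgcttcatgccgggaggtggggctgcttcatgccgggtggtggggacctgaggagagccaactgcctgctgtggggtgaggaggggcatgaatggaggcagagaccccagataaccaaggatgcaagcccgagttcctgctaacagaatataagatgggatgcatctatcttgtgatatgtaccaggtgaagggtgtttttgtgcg
In Top2a the CHR match lies at −22 to −17 from the start, on the other strand, with 4 CCAAT boxes upstream. In Ccnb1 it lies at −25 to −20 with CCAAT boxes at −82 and −50. The Mki67 window holds 2 CHR matches, 4 CCAAT boxes and 1 E2F site at −70 to −64. The second CHR match of Mki67 shares 1 base with a CCAAT box.

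CHR matches were in 13 of 15 mitosis promoters (86.7%), in 5 of 7 of the cyclins and regulators (71.4%) and in 1 of 9 replication promoters (11.1%), against 28.3% of all 33469 promoters. E2F sites ran the other way, in 7 of 9 replication promoters (77.8%) and 1 of 15 mitosis promoters (6.67%), against 9.52% of all. A CHR match together with a CCAAT box was in 10 of 15 mitosis promoters (66.7%) and 0 of 9 replication promoters, against 11.3% of all. Among the mitosis promoters, Cdca3 held 3 CCAAT boxes and no CHR match in this window. These are matches of letters, not measured binding.

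The probes of 4 members that the results turn on are 60 bases long and are given as the array's files list them, with positions on rn4. No letters are in capitals, since nothing is compared within them.
Mki67 probe, chr1:195313148-195313207, minus strand: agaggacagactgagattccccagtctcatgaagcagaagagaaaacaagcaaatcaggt
Top2a probe, chr10:87774762-87774821, minus strand: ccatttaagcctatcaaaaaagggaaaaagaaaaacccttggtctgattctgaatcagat
Rrm2 probe, chr6:42357941-42358000, plus strand: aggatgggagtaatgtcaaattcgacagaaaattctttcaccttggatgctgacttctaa
Cenpf probe, chr13:105929894-105929953, minus strand: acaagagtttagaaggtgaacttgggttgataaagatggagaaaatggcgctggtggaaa

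Most members stood highest in CD90 cells and lowest in TRKA-TGF cells. Of the 39 tested members, the mean was highest in CD90 for 25, in TRKA for 8, in p75 for 4 and in TRKA-TGF for 2. It was lowest in TRKA-TGF for 22, in TRKA for 10, in p75 for 5 and in CD90 for 2, although levels below background have no order. The members' brightest probe was well above background on all 4 arrays for 35 members in CD90 (89.7%), 29 in p75 (74.4%), 19 in TRKA-TGF (48.7%) and 15 in TRKA (38.5%). Over all genes tested the same shares were 77.4%, 75%, 75.4% and 52.3%. In both TRKA populations the members were thus measured less often than genes at large, and in TRKA cells genes at large were also dim. The heatmap of levels shows this as dark cells in the mitosis lines of both TRKA populations.

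**Figure D1:**
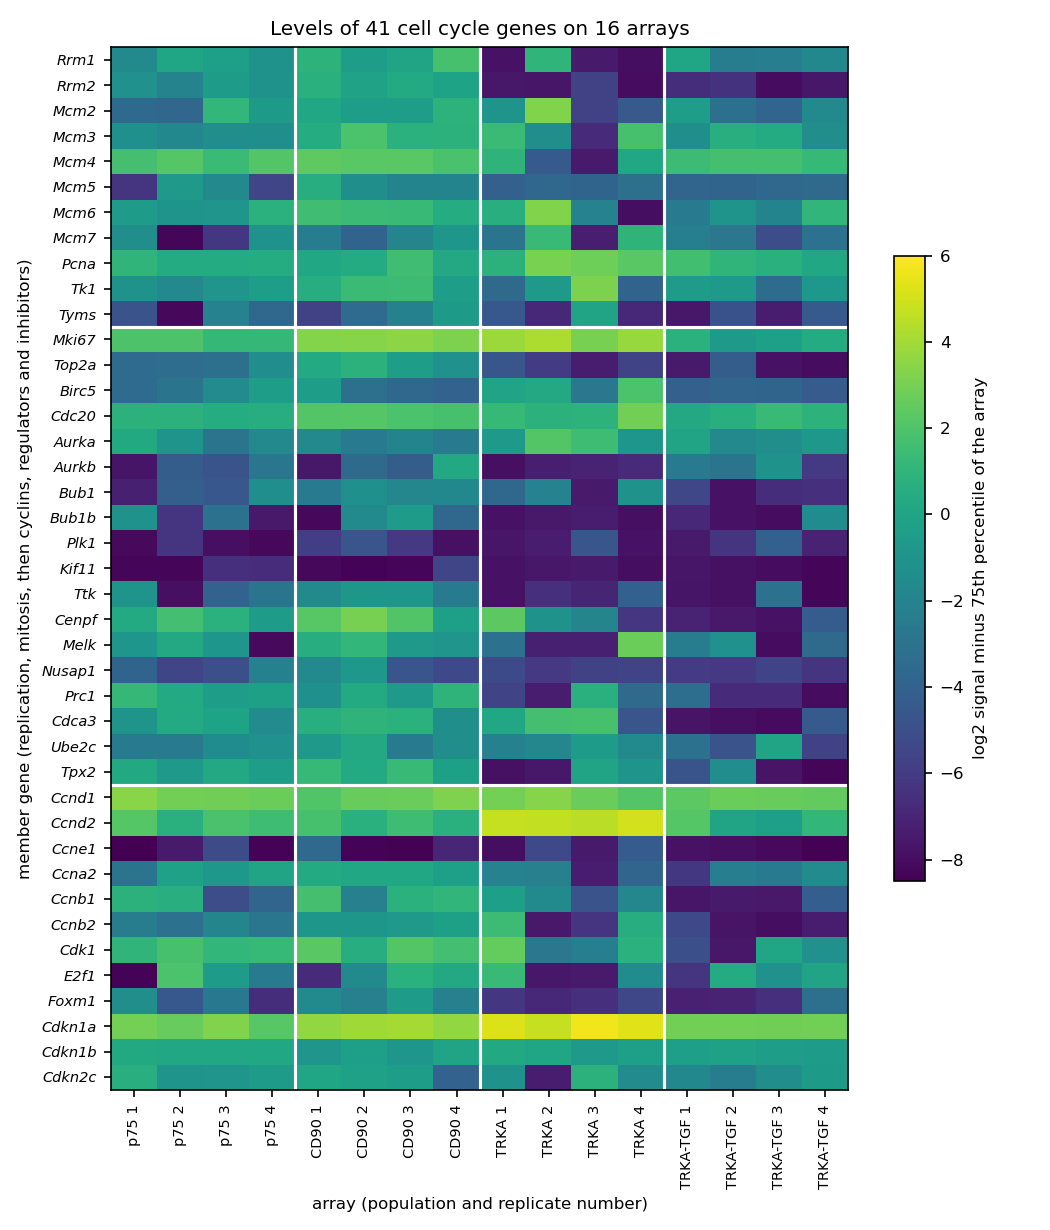
Levels of the 41 members (lines of the grid, by role) on the 16 arrays (columns, 4 per population), as log2 signal minus the 75th percentile of the array; white lines part populations and roles. Ccnd1 and Cdkn1a are bright on every array, and most mitosis genes are dark on the TRKA-TGF arrays.

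Counting probes above background by role, 11 of 11 replication members were measured on each CD90 array by any probe, 9 to 11 on the p75 arrays, 8 to 9 in TRKA and 9 to 10 in TRKA-TGF. Of 18 mitosis members, 14 to 17 were measured on the CD90 arrays, 14 to 16 in p75, 9 to 12 in TRKA and 9 to 11 in TRKA-TGF. For the 12 cyclins and regulators these were 11 to 12, 11 to 12, 8 to 12 and 8 to 10. The mitosis counts of both TRKA populations lay below every p75 and CD90 array. Over all genes tested, by the brightest probe, 85.3% to 88.2% were well above background per p75 array and 88.0% to 89.9% per CD90 array. In TRKA these were 67.7% to 74.3% and in TRKA-TGF 83.2% to 88.7%. Genes at large thus also lay below every p75 and CD90 array in TRKA, whereas in TRKA-TGF they overlapped both. Plk1, a kinase of mitotic entry, and Kif11, a spindle motor, failed the filter: Plk1 was well above background on 3 arrays and Kif11 on 1.

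**Figure D2:**
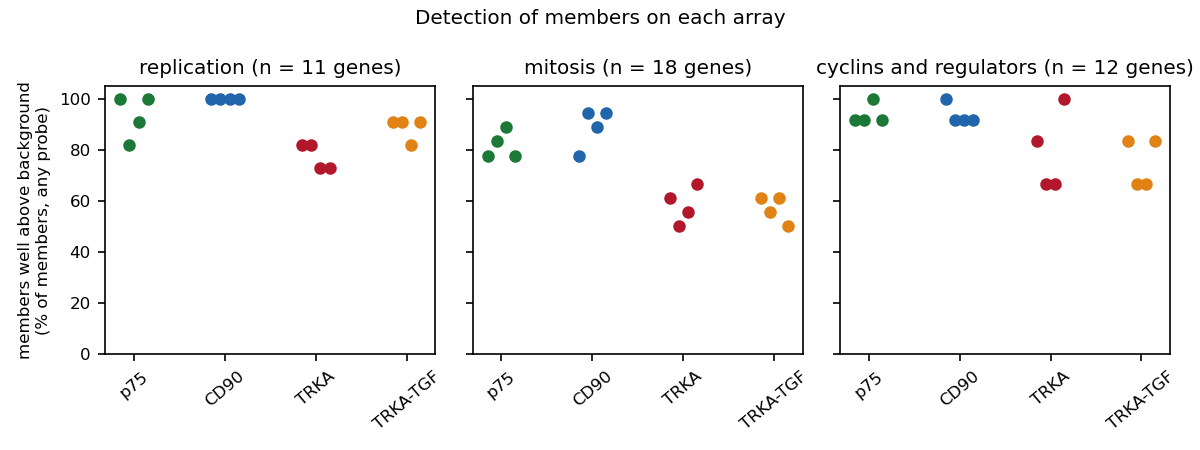
Share of members well above background on each array by any probe (y axis, % of members) in the 4 populations (x axis), with 1 dot per array and 1 panel per role. In the mitosis panel the TRKA and TRKA-TGF dots lie below all p75 and CD90 dots. Over all genes tested (not drawn) the TRKA arrays also lay below these, and the TRKA-TGF arrays overlapped them.

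TRKA-TGF against CD90, within slide 2, gave the most member calls. Of the 39 members, 14 were called lower and 0 higher, while 7.19% of all genes tested were called lower and 7.72% higher. The 14 were 8 of 16 mitosis genes (Bub1, Cdca3, Cenpf, Mki67, Prc1, Top2a, Tpx2 and Ttk), 5 of 12 cyclins and regulators (Ccnb1, Ccnb2, Cdk1, Cdkn1a and Foxm1) and 1 of 11 replication genes (Rrm2). The median difference of the 39 was −2.31, against 0.15 over all genes, and 5 of 39 differences were above 0. The member share of lower calls was 35.9%.

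Against p75, TRKA-TGF cells had 8 members lower and 0 higher, with background shares of 7.15% lower and 7.97% higher. They were Ccnb1, Cdca3, Cdk1, Cenpf, Mki67, Prc1, Rrm2 and Top2a, 5 of them mitosis genes. The median of the 39 was −1.33 and of all genes 0.14. All 8 genes are among the 14 lower than in CD90; these comparisons share the TRKA-TGF arrays.

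Against TRKA, the comparison that follows induction with TGF-a, TRKA-TGF cells had 8 members lower (Birc5, Ccnb1, Ccnd2, Cdca3, Cdkn1a, Cenpf, Mki67 and Pcna) and 1 higher (Mcm4). The background was 12.9% lower and 13.5% higher, and the medians were −0.72 for the members and 0.19 for all genes. The share lower, 20.5%, was above the background and the share higher, 2.56%, below it.

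TRKA cells against p75 cells, within slide 1, had 4 members higher (Ccnd2, Cdkn1a, Mki67 and Pcna) and 5 lower (Mcm4, Prc1, Rrm1, Rrm2 and Top2a). The shares, 10.3% and 12.8%, were below the background of 18.8% higher and 16.9% lower, so the count itself is no result about these genes. The median was −0.39, against −0.01 over all genes.

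Against CD90, TRKA cells had 4 members higher (Aurka, Ccnd2, Cdkn1a and Pcna) and 8 lower (Ccna2, Foxm1, Mcm4, Nusap1, Rrm1, Rrm2, Top2a and Ttk). The background was 18.3% higher and 16.6% lower, against member shares of 10.3% and 20.5%. The median of the 39 was −2.06, against −0.09 over all genes.

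CD90 cells against p75 cells had 2 members higher, Mki67 and Cdkn1a, and 0 lower, with a background of 3.68% higher and 3.57% lower. The differences were above 0 for 32 of 39 members with a median of 1.09, against 0.05 over all genes, but 37 were not called.

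With arrays scaled on the probes detected on all 16 arrays instead, the median of all genes moved to −0.90 in TRKA versus p75, −1.07 in TRKA versus CD90 and 0.96 in TRKA-TGF versus TRKA. The share of calls that were higher then went from 52.7% to 20.7%, from 52.3% to 18.7% and from 51.1% to 82.9% of called genes. The members went to 3 higher and 10 lower, 1 higher and 16 lower, and 3 higher and 6 lower. In TRKA versus p75, where 7320 of the 20571 genes were called with this scaling, the member shares lay near those of all genes. Those member counts are therefore no result about these genes. In TRKA versus CD90, 8190 genes were called, and the members' lower share lay above that of all genes. Normexp background correction moved the higher shares to 66.6%, 62.3% and 39.1%, and quantile normalization gave 59.8% to 60.3% in the TRKA comparisons and 39.9% in TRKA-TGF versus TRKA. Normexp as run here adds 50 to every signal: the 54 member calls of the 6 comparisons shrank to a median of 0.61 of their log2 difference, 31 of them by more than 1.5 times, and 4 were lost. Quantile normalization and the authors' deposited values shrank 8 each by more than 1.5 times, the mean of kept probes 8, and scaling on the detected probes 7. The split of calls in the 3 comparisons that hold TRKA therefore depends on the scaling, whereas in both comparisons of TRKA-TGF with p75 and CD90 0 members were called higher under each of these settings.

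**Figure D3:**
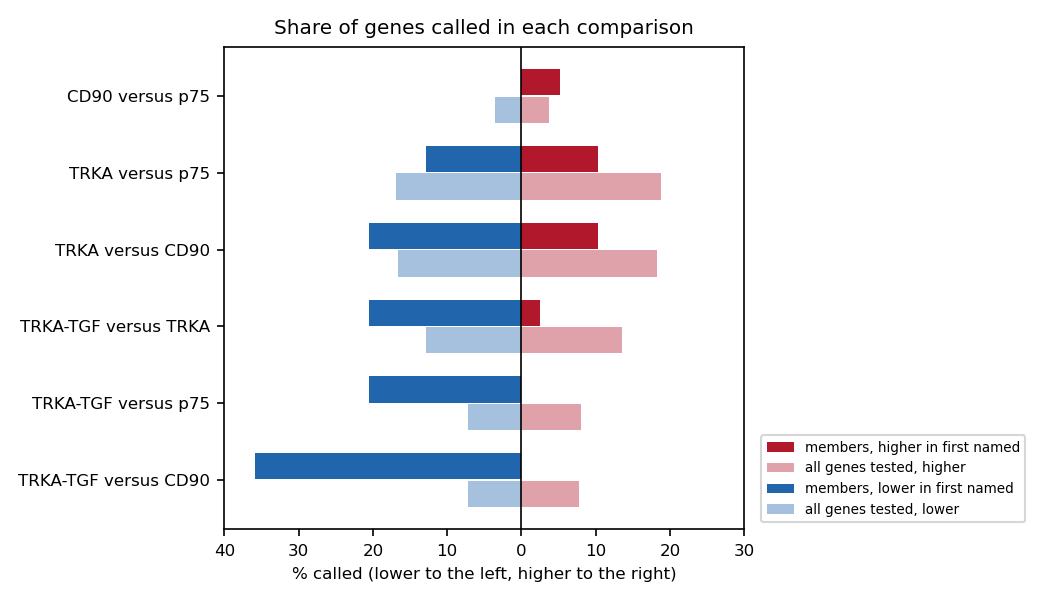
Share of genes called lower (left) and higher (right) in each comparison, in %, for the 39 tested members (dark bars) and all 20571 genes tested (pale bars). The members' lower share stands above the background most clearly in TRKA-TGF versus CD90, at 35.9% against 7.19%.

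Among the replication genes, both ribonucleotide reductase subunits were lower in TRKA cells, and the small subunit was also lower in TRKA-TGF cells. Rrm2, the small subunit whose level sets the supply of deoxynucleotides, stood at −1.15, −1.99, −0.51 and −1.08 on the p75 arrays and 0.68, −0.12, 0.35 and −0.07 on the CD90 arrays. Its probe read −7.59, −7.61, −5.62 and −8.02 in TRKA and −6.59, −6.35, −8.02 and −7.55 in TRKA-TGF, and was well above background on 0 of these 8 arrays. Neither TRKA population overlaps p75 or CD90, and all p75 arrays lie below all CD90 arrays. Against p75 it was at least 37.4-fold lower in TRKA cells (adjusted p = 1.27e-06), and in TRKA-TGF cells at least 47-fold lower (adjusted p = 2.67e-06). Against CD90 the bounds were 98-fold (adjusted p = 2.27e-07) and 123-fold (adjusted p = 4.74e-07). For such a bound the dim probe is set, on each array, at its own signal or at the faintest signal that still counted as well above background, whichever is higher. The adjusted p beside a bound is not a test of the bound. It comes from the limma fit on the values as read, where TRKA minus p75 was −6.03. With normexp the differences were −2.50 (TRKA versus p75), −3.77 (TRKA versus CD90), −2.96 (TRKA-TGF versus p75) and −4.24 (TRKA-TGF versus CD90), all 4 still called. Averaged over both probes they were −3.20, −3.83, −3.73 and −4.36, also called. A second, dim Rrm2 probe gave −5.19 ± 2.24, −5.32 ± 1.17, −5.55 ± 2.63 and −6.70 ± 1.88 (mean ± SD) in p75, CD90, TRKA and TRKA-TGF, was measured on 3, 3, 2 and 1 arrays, and was called in none of the 4 comparisons.

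Rrm1, the large subunit, stood at −1.62, 0.07, −0.34 and −1.05 in p75 and 0.90, −0.45, −0.03 and 1.76 in CD90. In TRKA cells it read −7.81, 0.97, −7.44 and −7.94, with only replicate 2 well above background, and in TRKA-TGF cells 0.07, −2.42, −2.31 and −1.76, well above background on all 4. Replicate 2 of TRKA lies above all p75 arrays and within the CD90 range, and the other TRKA arrays lie below both. TRKA was lower than CD90 by the fit (−6.10 ± 1.56, adjusted p = 0.00755) and than p75 (−4.82 ± 1.56, adjusted p = 0.0274). The second call was lost without p75 replicate 2 or 3 or TRKA replicate 1, 3 or 4 (adjusted p = 0.0603 to 0.0756) and with normexp (−1.74, adjusted p = 0.137) or only the groups compared in the fit (adjusted p = 0.123). The first was lost with only the groups compared in the fit (adjusted p = 0.0664). Unlike Rrm2, Rrm1 was measured on every TRKA-TGF array, with a TRKA-TGF minus TRKA difference of 3.95 ± 1.56, adjusted p = 0.0792, not called.

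Pcna, the sliding clamp of DNA polymerase, ran in the opposite direction in TRKA cells. It stood at 0.99, 0.45, 0.39 and 0.49 in p75, 0.18, 0.44, 1.54 and 0.24 in CD90, 0.80, 3.08, 2.78 and 2.32 in TRKA and 1.62, 0.97, 0.69 and 0.15 in TRKA-TGF. TRKA replicates 2 to 4 lie above all other arrays and replicate 1 lies among them. TRKA was higher than p75 (1.66 ± 0.49, adjusted p = 0.0161) and CD90 (1.64 ± 0.49, adjusted p = 0.0173), and TRKA-TGF lower than TRKA (−1.39 ± 0.49, adjusted p = 0.0493). The call against p75 was lost with quantile normalization (adjusted p = 0.0612), scaling on probes detected on all arrays (0.77, adjusted p = 0.203), the authors' deposited values (adjusted p = 0.0612), only the groups compared in the fit (adjusted p = 0.0566) or array weights (adjusted p = 0.0557). The call against CD90 was lost with quantile normalization (1.06, adjusted p = 0.0736), scaling on probes detected on all arrays (0.66, adjusted p = 0.257), the authors' deposited values (1.06, adjusted p = 0.0736), only the groups compared in the fit (adjusted p = 0.0842) or array weights (adjusted p = 0.077), and without TRKA replicate 2 (adjusted p = 0.0506). That of TRKA-TGF against TRKA was lost with quantile normalization (−0.83, adjusted p = 0.178), scaling on probes detected on all arrays (−0.62, adjusted p = 0.313), the authors' deposited values (−0.83, adjusted p = 0.178), no filter (adjusted p = 0.0572), only the groups compared in the fit (adjusted p = 0.142) or array weights (adjusted p = 0.127), and without TRKA replicate 2, 3 or 4 or TRKA-TGF replicate 2, 3 or 4 (adjusted p = 0.0822 to 0.139). Replicate number as a block in the fit also ended this last call (adjusted p = 0.072).

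Mcm4, a subunit of the replicative helicase, was even in 3 populations and scattered in TRKA. Its levels were 1.74, 2.17, 1.38 and 2.14 in p75, 2.43, 2.29, 2.28 and 1.84 in CD90 and 1.44, 1.70, 1.74 and 1.23 in TRKA-TGF, against 0.93, −4.39, −7.43 and 0.13 in TRKA, where 3 arrays were well above background. All TRKA arrays lie below all others, 2 of them by a wide margin. TRKA was lower than p75 (−4.55 ± 1.33, adjusted p = 0.0162) and CD90 (−4.90 ± 1.33, adjusted p = 0.0107), and TRKA-TGF higher than TRKA (4.22 ± 1.33, adjusted p = 0.0314). The last call was lost without TRKA replicate 2 or TRKA-TGF replicate 1, 2, 3 or 4 (adjusted p = 0.0579 to 0.0802). With only the groups compared in the fit, all 3 were lost (adjusted p = 0.108, 0.0894 and 0.149). The second Mcm4 probe had the same order of TRKA below the others at −2.32 ± 0.95, −2.10 ± 0.59, −3.87 ± 2.55 and −3.05 ± 2.12 and was not called.

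Of the other helicase subunits, Mcm2, Mcm3, Mcm5, Mcm6 and Mcm7 were called in no comparison by their brightest probe. Group means of these 5 ran from −4.19 (Mcm7) to −0.42 (Mcm6) in p75 and from −2.24 (Mcm7) to 1.16 (Mcm6) in CD90. The spread in TRKA was wide, with SDs of 3.99 for Mcm2, 3.95 for Mcm3, 4.80 for Mcm6 and 4.01 for Mcm7, while Mcm5 had 0.37. Mcm6 alone read 0.63, 3.26, −2.10 and −7.94 on the TRKA arrays.

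The Mcm3 probes disagreed. The brightest gave −1.39 ± 0.24 in p75, 1.0 ± 0.63 in CD90, −1.23 ± 3.95 in TRKA and −0.40 ± 1.04 in TRKA-TGF. The other gave −1.72 ± 0.55, −0.66 ± 0.57, 1.64 ± 0.04 and −2.91 ± 1.67 and was well above background on all 16 arrays. By that probe TRKA was higher than p75 (3.36, adjusted p = 0.000933) and CD90 (2.30, adjusted p = 0.0122), and TRKA-TGF was lower than TRKA (−4.55, adjusted p = 0.000157) and CD90 (−2.25, adjusted p = 0.0286; limma over probes, Benjamini-Hochberg). The direction of Mcm3 in TRKA therefore rests on which probe is read. Mcm2 also has 2 probes, with means in TRKA of −1.94 ± 3.99 and −1.87 ± 3.82 and in p75 of −1.68 ± 2.34 and −4.75 ± 3.24, and neither was called.

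The thymidylate genes were not called. Tk1, thymidine kinase of the salvage pathway, stood at −1.05 ± 0.51 in p75, 0.75 ± 0.85 in CD90, −1.23 ± 3.25 in TRKA and −1.31 ± 1.39 in TRKA-TGF. Tyms, thymidylate synthase, stood at −4.69 ± 2.60, −2.97 ± 2.14, −4.55 ± 3.22 and −6.03 ± 1.66, with 3, 4, 2 and 2 arrays well above background.

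Among the mitosis genes, Mki67 was high in TRKA cells and low in TRKA-TGF cells. Mki67 encodes the Ki-67 protein that coats mitotic chromosomes and is the usual marker of cycling cells. It stood at 1.94, 1.93, 1.15 and 1.15 in p75, 3.29, 3.39, 3.47 and 3.14 in CD90, 3.81, 4.22, 3.05 and 3.79 in TRKA and 0.76, −0.69, −0.29 and 0.40 in TRKA-TGF, well above background on all 16 arrays. TRKA-TGF lies below every other array, p75 above it, and CD90 and TRKA overlap at the top. CD90 was higher than p75 (1.78 ± 0.35, adjusted p = 0.0057) and so was TRKA (2.18 ± 0.35, adjusted p = 0.000284). TRKA-TGF was 12.7-fold lower than TRKA (−3.67 ± 0.35, adjusted p = 7.52e-06). It was also lower than CD90 (−3.28 ± 0.35, adjusted p = 1.97e-05) and p75 (−1.5 ± 0.35, adjusted p = 0.00965).

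Of the other 2 Mki67 probes, the first read 1.04 ± 0.17, 3.15 ± 0.20, 3.86 ± 0.38 and −0.40 ± 0.22 and was called in the same 5 comparisons and directions, and also higher in TRKA than in CD90 (0.71, adjusted p = 0.0359). The dimmer one read −4.09 ± 3.04, −0.54 ± 0.34, 1.56 ± 1.51 and −2.62 ± 0.61. It was called in TRKA versus p75 (5.65, adjusted p = 0.00172) and TRKA-TGF versus TRKA (−4.18, adjusted p = 0.0168), and lay above 0 in TRKA-TGF versus p75 (1.47, adjusted p = 0.515, not called). With the 3 probes averaged, the call of TRKA-TGF versus p75 was lost (−0.49, adjusted p = 0.552).

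Top2a, topoisomerase II alpha, which untangles sister chromatids, was lower in TRKA cells than in p75 cells, where Mki67 was higher. Its levels were −3.42, −3.29, −3.17 and −1.38 in p75 and 0.35, 0.83, −0.35 and −1.18 in CD90. In TRKA they were −4.59, −5.98, −7.35 and −5.55 and in TRKA-TGF −7.46, −4.21, −7.77 and −8.03, well above background on 1 array in each group. All TRKA arrays lie below all p75 arrays. TRKA was lower than p75 (−3.05 ± 0.85, adjusted p = 0.012) and CD90 (−5.78 ± 0.85, adjusted p = 0.000112), and TRKA-TGF was lower than p75 (−4.05 ± 0.85, adjusted p = 0.00403) and CD90 (−6.78 ± 0.85, adjusted p = 6.95e-05). The first call was lost with quantile normalization (−1.78, adjusted p = 0.154), the authors' deposited values (−1.79, adjusted p = 0.153) or array weights (adjusted p = 0.0937). The second Top2a probe was called in the same 4 comparisons and directions, and was well above background on 0 TRKA arrays and 1 TRKA-TGF array.

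The dots of 12 members by array show Mki67 at its highest in TRKA, while Rrm2 and Top2a lie far below their p75 and CD90 levels there.

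**Figure D4:**
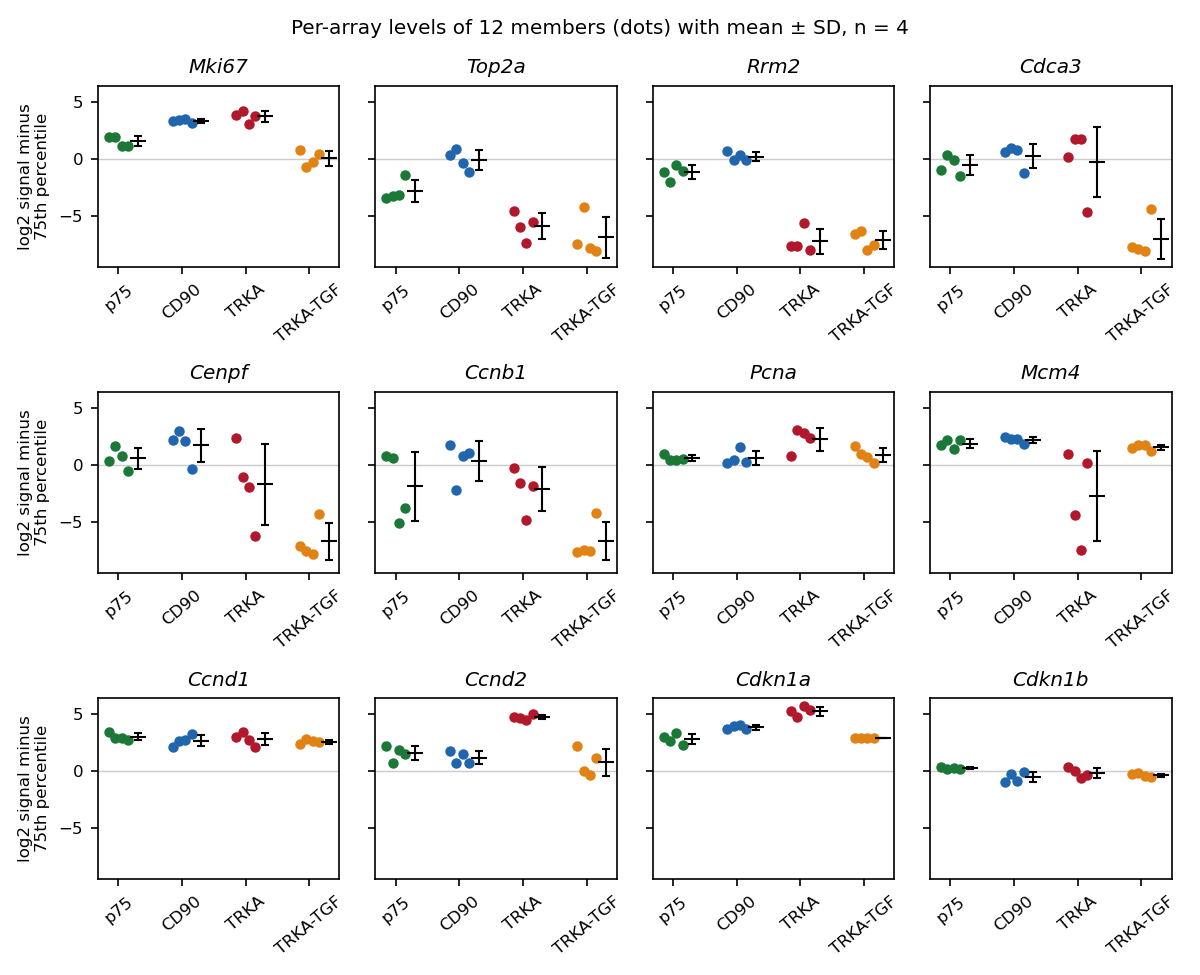
Levels of 12 members on each array (dots; log2 signal minus the 75th percentile of the array) in the 4 populations, with mean ± SD (n = 4) beside them in black. Ccnd2 and Cdkn1a stand highest in TRKA, Cdca3, Cenpf (its brightest probe) and Ccnb1 have their lowest mean in TRKA-TGF, and Ccnd1 is level in all 4.

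Cdca3, and Cenpf by its brightest probe, had their lowest means in TRKA-TGF. Cenpf, a kinetochore protein of late cycle, stood at 0.36, 1.67, 0.78 and −0.50 in p75, 2.22, 3.01, 2.07 and −0.33 in CD90, 2.36, −1.03, −1.90 and −6.21 in TRKA and −7.11, −7.51, −7.81 and −4.29 in TRKA-TGF, where 1 array was well above background. The TRKA-TGF arrays lie below all p75 and CD90 arrays, and TRKA spans almost the whole range. TRKA-TGF was lower than CD90 (−8.42 ± 1.42, adjusted p = 0.000898), p75 (−7.26 ± 1.42, adjusted p = 0.00254) and TRKA (−4.98 ± 1.42, adjusted p = 0.0191). The last call was lost without TRKA-TGF replicate 2 or 3 (adjusted p = 0.0509 to 0.0538) and with the mean of kept probes (−1.36, adjusted p = 0.258) or only the groups compared in the fit (adjusted p = 0.0938).

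The other Cenpf probe gave −1.92 ± 1.17, −1.22 ± 1.26, −7.22 ± 0.51 and −4.96 ± 0.32, and was well above background on 0 TRKA and 4 TRKA-TGF arrays. Its mean was lowest in TRKA. It was also lower in TRKA-TGF than in CD90 (−3.74, adjusted p = 0.00087) and p75 (−3.03, adjusted p = 0.00381), but higher in TRKA-TGF than in TRKA (2.26, adjusted p = 0.0167; limma over probes). Cenpf therefore has no settled direction between the TRKA populations.

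Cdca3, which helps trigger mitotic entry, stood at −0.98, 0.39, −0.08 and −1.48 in p75, 0.64, 0.94, 0.78 and −1.27 in CD90 and 0.13, 1.73, 1.77 and −4.69 in TRKA. In TRKA-TGF it read −7.72, −7.89, −8.05 and −4.38, with 1 array well above background. Replicate 4 of TRKA lies among the TRKA-TGF arrays and the other TRKA arrays lie above them. TRKA-TGF was lower than TRKA (−6.74 ± 1.26, adjusted p = 0.00132), p75 (−6.47 ± 1.26, adjusted p = 0.00249) and CD90 (−7.28 ± 1.26, adjusted p = 0.0011).

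Prc1, which bundles the microtubules of the central spindle, stood at 1.16, 0.38, −0.39 and −0.23 in p75 and −1.24, 0.36, −0.68 and 0.95 in CD90. It read −5.55, −7.32, 0.70 and −3.48 in TRKA, with 2 arrays well above background, and −3.28, −6.78, −6.69 and −8.00 in TRKA-TGF, with 1. TRKA-TGF was lower than p75 (−6.41 ± 1.40, adjusted p = 0.00559) and CD90 (−6.03 ± 1.40, adjusted p = 0.00906), and both Prc1 probes were called in these comparisons. TRKA was lower than p75 (−4.14 ± 1.40, adjusted p = 0.0337), a call lost without p75 replicate 1, 2, 3 or 4 or TRKA replicate 1 or 2 (adjusted p = 0.0524 to 0.0969) and with only the groups compared in the fit (adjusted p = 0.103) or array weights (adjusted p = 0.0567). That call was also lost with replicate number as a block in the fit (adjusted p = 0.0551).

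Birc5, or survivin, a subunit of the chromosomal passenger complex, stood at −3.41, −2.92, −1.5 and −0.38 in p75, −0.41, −3.13, −3.67 and −3.95 in CD90, −0.05, 0.26, −2.75 and 1.89 in TRKA and −4.07, −3.76, −3.85 and −4.34 in TRKA-TGF. It was measured on all 16 arrays, and the TRKA-TGF arrays lie below all p75 and TRKA arrays. TRKA-TGF was lower than TRKA (−3.84 ± 0.97, adjusted p = 0.00996), and no other comparison was called. Aurka, the Aurora kinase of centrosomes, was highest in TRKA at −0.64, 2.10, 1.5 and −0.86, against 0.33, −0.98, −2.93 and −1.65 in p75, −1.67, −2.44, −1.93 and −2.59 in CD90 and −0.03, −1.65, −1.33 and −0.77 in TRKA-TGF. TRKA and CD90 do not overlap. It was higher in TRKA than in CD90 (2.69 ± 0.75, adjusted p = 0.0122), a call lost with scaling on probes detected on all arrays (1.71, adjusted p = 0.0707) or array weights (adjusted p = 0.0645).

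The spindle checkpoint kinases Bub1 and Ttk were lower in TRKA-TGF than in CD90. Bub1 read −7.21, −4.10, −4.56 and −1.27 in p75, −2.46, −1.25, −1.81 and −1.75 in CD90, −3.6, −2.07, −7.44 and −1.04 in TRKA and −5.44, −7.79, −6.61 and −6.57 in TRKA-TGF, where 1 array was well above background (−4.79 ± 1.30, adjusted p = 0.0224). That call was lost without CD90 replicate 2 or TRKA-TGF replicate 2, 3 or 4 (adjusted p = 0.0511 to 0.0677). Ttk read −0.98, −7.91, −3.92 and −2.86 in p75, −1.55, −0.81, −0.87 and −2.48 in CD90, −7.79, −6.52, −7.00 and −4.0 in TRKA and −7.66, −7.84, −3.11 and −8.24 in TRKA-TGF, with 1 array well above background in each TRKA population. It was lower than CD90 in TRKA (−4.90 ± 1.41, adjusted p = 0.0149) and in TRKA-TGF (−5.29 ± 1.41, adjusted p = 0.0204). The former call was lost with array weights (adjusted p = 0.106) and the latter without CD90 replicate 2 or 3 or TRKA-TGF replicate 1, 2 or 4 (adjusted p = 0.0525 to 0.0655). CD90 does not overlap TRKA-TGF in either gene.

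The spindle assembly factors Tpx2 and Nusap1 gave 1 call each. Tpx2, an activator of Aurka, stood at 0.33, −0.71, 0.26 and −0.35 in p75 and 1.19, 0.38, 1.34 and −0.29 in CD90, and at −7.84, −7.59, −0.03 and −0.98 in TRKA and −4.74, −1.37, −7.74 and −8.25 in TRKA-TGF, each with 2 arrays well above background. TRKA-TGF was lower than CD90 (−6.18 ± 1.78, adjusted p = 0.0308), a call lost without CD90 replicate 1, 2 or 3 or TRKA-TGF replicate 1, 3 or 4 (adjusted p = 0.0542 to 0.0993). That call was also lost with replicate number as a block in the fit (adjusted p = 0.0664). Nusap1 stood at −3.82, −5.46, −4.97 and −2.13 in p75, −1.70, −0.75, −4.64 and −5.32 in CD90, −5.23, −6.07, −5.72 and −5.55 in TRKA and −5.90, −6.07, −5.58 and −6.32 in TRKA-TGF. TRKA was lower than CD90 (−2.54 ± 0.92, adjusted p = 0.0453), although CD90 replicate 4 lies among the TRKA arrays. This call was lost without CD90 replicate 1 or 2 or TRKA replicate 1, 2, 3 or 4 (adjusted p = 0.0583 to 0.138), and with normexp (−0.99, adjusted p = 0.189), quantile normalization (−1.0, adjusted p = 0.411), the authors' deposited values (−1.01, adjusted p = 0.407), only the groups compared in the fit (adjusted p = 0.123) or array weights (adjusted p = 0.181). Replicate number as a block in the fit also ended it (adjusted p = 0.0702).

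The remaining mitosis genes were not called. Cdc20, which activates the anaphase-promoting complex, was measured on all 16 arrays at 0.67 ± 0.19 in p75, 1.99 ± 0.19 in CD90, 1.47 ± 1.0 in TRKA and 0.75 ± 0.43 in TRKA-TGF. Its TRKA-TGF minus CD90 difference was −1.24 ± 0.41, adjusted p = 0.0567, with a 95% interval of −2.12 to −0.37. Ube2c, the ubiquitin-conjugating enzyme of the same complex, stood at −1.90 ± 0.69, −1.08 ± 1.19, −1.51 ± 0.70 and −3.40 ± 2.49. Unlike most mitosis genes, both were well above background on all TRKA arrays. Aurkb, the Aurora kinase of the chromosomal passenger complex, stood at −4.85 ± 2.05, −3.75 ± 3.22, −7.25 ± 0.48 and −3.17 ± 2.09, well above background on 0 TRKA and 4 TRKA-TGF arrays. Bub1b, a checkpoint protein, was measured on 3, 3, 0 and 1 arrays, and the kinase Melk stood at −2.41 ± 3.84, 0.00 ± 0.98, −3.69 ± 4.72 and −3.76 ± 3.01.

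The plot of within-slide differences orders the members by TRKA-TGF minus CD90.

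**Figure D5:**
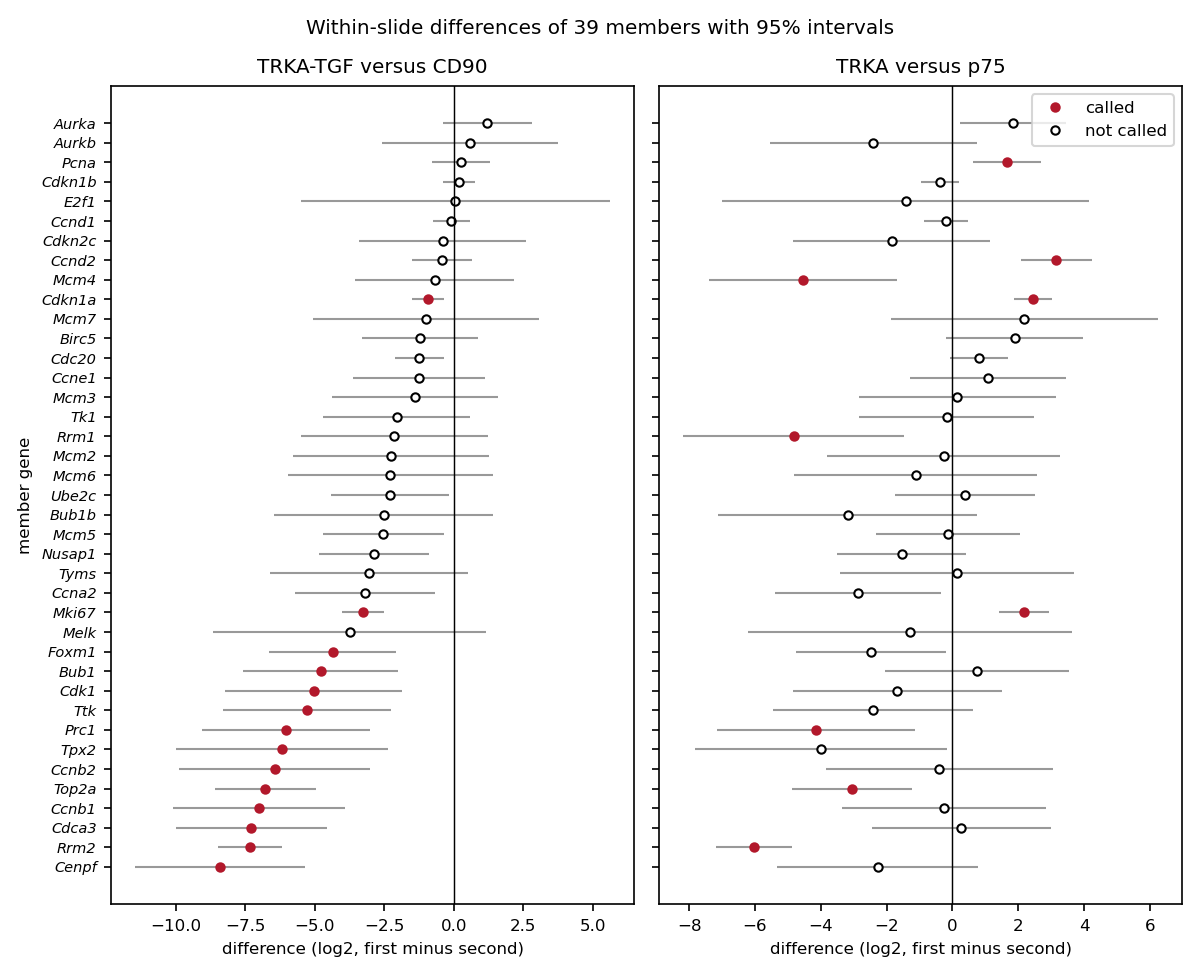
Differences of the 39 tested members (y axis) with 95% intervals, TRKA-TGF minus CD90 (left) and TRKA minus p75 (right), in log2 units; filled dots were called (limma, adjusted p under 0.05). On the left 14 members are called, all below 0; on the right Ccnd2, Cdkn1a, Mki67 and Pcna are called above 0 and 5 members below.

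The D-type cyclins, which act first in the cycle, differed from each other. Ccnd1 stood at 3.43, 2.93, 2.87 and 2.74 in p75, 2.09, 2.61, 2.69 and 3.21 in CD90, 2.99, 3.38, 2.69 and 2.09 in TRKA and 2.33, 2.76, 2.65 and 2.49 in TRKA-TGF. All groups overlap, and no comparison was called; the 95% interval of TRKA-TGF minus TRKA was −0.90 to 0.44 and of TRKA minus p75 −0.87 to 0.47. With scaling on probes detected on all arrays, TRKA minus CD90 turned from 0.14 to −0.84 (adjusted p = 0.0356).

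Ccnd2 was high in TRKA alone. It stood at 4.73, 4.67, 4.49 and 5.0 on the TRKA arrays, against 2.19, 0.70, 1.85 and 1.49 in p75, 1.76, 0.73, 1.49 and 0.71 in CD90 and 2.20, −0.03, −0.32 and 1.12 in TRKA-TGF. The lowest TRKA array lies above the highest of the other 12. TRKA was higher than p75 by 3.16 ± 0.51 (adjusted p = 0.000248, 8.95-fold) and CD90 by 3.55 ± 0.51 (adjusted p = 9.29e-05, 11.7-fold). TRKA-TGF was 15.8-fold lower than TRKA (−3.98 ± 0.51, adjusted p = 7.47e-05). These 3 calls held under every alternative run.

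The cyclins and kinase of mitotic entry were lowest in TRKA-TGF. Ccnb1, cyclin B1, stood at 0.81, 0.58, −5.09 and −3.77 in p75, 1.70, −2.21, 0.77 and 1.06 in CD90, −0.30, −1.60, −4.81 and −1.80 in TRKA and −7.61, −7.44, −7.52 and −4.17 in TRKA-TGF, where 1 array was well above background. TRKA-TGF lies below all CD90 arrays and overlaps p75 and TRKA. It was lower than CD90 (−7.02 ± 1.44, adjusted p = 0.00391), TRKA (−4.56 ± 1.44, adjusted p = 0.0318) and p75 (−4.82 ± 1.44, adjusted p = 0.0371). The call against TRKA was lost without TRKA replicate 1, 2 or 4 or TRKA-TGF replicate 1, 2 or 3 (adjusted p = 0.0594 to 0.0784), and with normexp (−2.16, adjusted p = 0.13), scaling on probes detected on all arrays (adjusted p = 0.0624) or array weights (adjusted p = 0.134). That against p75 was lost without p75 replicate 1 or 2 or TRKA-TGF replicate 1, 2 or 3 (adjusted p = 0.0926 to 0.116), and with normexp (−2.35, adjusted p = 0.13) or only the groups compared in the fit (adjusted p = 0.0655).

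Ccnb2, cyclin B2, stood at −2.39, −3.11, −1.91 and −2.80 in p75, −0.83, −0.80, −0.66 and −0.26 in CD90, 1.44, −7.54, −6.25 and 0.52 in TRKA and −5.29, −7.75, −7.98 and −7.36 in TRKA-TGF. TRKA splits into 2 arrays above all others and 2 among the TRKA-TGF arrays, and only TRKA-TGF versus CD90 was called (−6.45 ± 1.60, adjusted p = 0.0137). Cdk1, the kinase that cyclin B activates, stood at 0.97, 1.78, 1.10 and 1.19 in p75, 2.28, 0.52, 2.13 and 1.66 in CD90, 2.59, −2.75, −2.24 and 0.74 in TRKA and −4.98, −7.54, 0.07 and −1.16 in TRKA-TGF. The TRKA-TGF arrays lie below all p75 and CD90 arrays, with calls against CD90 (−5.05 ± 1.47, adjusted p = 0.033) and p75 (−4.66 ± 1.47, adjusted p = 0.0481). The first was lost without CD90 replicate 1, 3 or 4 or TRKA-TGF replicate 1 or 2 (adjusted p = 0.0676 to 0.0951) and with only the groups compared in the fit (adjusted p = 0.0665). The second was lost without p75 replicate 1, 2, 3 or 4 or TRKA-TGF replicate 1 or 2 (adjusted p = 0.0856 to 0.139), and with no filter (adjusted p = 0.058) or only the groups compared in the fit (adjusted p = 0.077). Replicate number as a block in the fit also ended the second (adjusted p = 0.0514).

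Ccna2, cyclin A2, and Foxm1, the transcription factor of mitosis genes, were lower in TRKA than in CD90. Ccna2 stood at −2.92, −0.23, −0.75 and −0.01 in p75, 0.38, 0.14, 0.11 and −0.34 in CD90, −2.08, −2.17, −7.37 and −3.79 in TRKA and −6.14, −2.32, −2.52 and −1.49 in TRKA-TGF (−3.93 ± 1.18, adjusted p = 0.0187 for TRKA minus CD90). Foxm1 stood at −1.31, −4.52, −2.66 and −6.59, −1.60, −2.18, −0.48 and −2.21, −6.21, −6.91, −6.47 and −5.39 and −7.15, −7.11, −6.48 and −3.15 in the same order, well above background on 1 array in each TRKA population. Both differences from CD90 were called, that of TRKA at −4.63 ± 1.06, adjusted p = 0.00378 and that of TRKA-TGF cells at −4.35 ± 1.06, adjusted p = 0.0124, and both of its probes were called. The TRKA call of Ccna2 was lost with quantile normalization (adjusted p = 0.0519), the authors' deposited values (adjusted p = 0.0518) or array weights (adjusted p = 0.086), and that of Foxm1 with array weights (adjusted p = 0.0514).

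Ccne1, cyclin E1, was near background throughout, with 1, 1, 2 and 0 arrays well above it. E2f1, the activator of replication genes, had SDs of 3.11 to 4.45 within populations. Neither was called.

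The inhibitors of the Cip/Kip family differed between TRKA and the other cells in 1 gene of 2. Cdkn1a, p21, the inhibitor that p53 induces, was measured on all arrays at 2.94, 2.66, 3.28 and 2.24 in p75, 3.65, 3.96, 4.05 and 3.65 in CD90, 5.24, 4.72, 5.67 and 5.30 in TRKA and 2.89, 2.91, 2.88 and 2.89 in TRKA-TGF. The TRKA arrays lie above all others, then come the CD90 arrays, and TRKA-TGF lies within the p75 range. TRKA was higher than p75 (2.45 ± 0.26, adjusted p = 8.41e-06) and TRKA-TGF lower than TRKA (−2.34 ± 0.26, adjusted p = 2.79e-05), calls that held under every alternative run and in both probes. TRKA was also higher than CD90 (1.41 ± 0.26, adjusted p = 0.000879), lost with quantile normalization (0.31, adjusted p = 0.376), scaling on probes detected on all arrays (0.43, adjusted p = 0.231) or the authors' deposited values (0.31, adjusted p = 0.376). CD90 was higher than p75 (1.05 ± 0.26, adjusted p = 0.0277) and TRKA-TGF lower than CD90 (−0.93 ± 0.26, adjusted p = 0.0286). The former was lost without p75 replicate 2 or 4 or CD90 replicate 2 or 3 (adjusted p = 0.0709 to 0.0866) and with only the groups compared in the fit (adjusted p = 0.0591), and the latter without CD90 replicate 2 or 3 or TRKA-TGF replicate 1, 2, 3 or 4 (adjusted p = 0.0609 to 0.0803) and with the mean of kept probes (−0.60, adjusted p = 0.0894). By limma over probes, the other Cdkn1a probe was not called in TRKA versus CD90 (0.76, adjusted p = 0.077). Nor was it called in CD90 versus p75 (0.92, adjusted p = 0.106) or TRKA-TGF versus CD90 (−0.26, adjusted p = 0.698).

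Cdkn1b, p27, stood at 0.33, 0.21, 0.21 and 0.13 in p75, −0.97, −0.30, −0.88 and −0.05 in CD90, 0.31, 0.01, −0.66 and −0.34 in TRKA and −0.29, −0.22, −0.44 and −0.51 in TRKA-TGF. It was called in no comparison; the TRKA minus p75 interval was −0.96 to 0.19 and the TRKA-TGF minus CD90 interval −0.39 to 0.76. Cdkn2c, p18, an inhibitor of the cyclin D kinases, stood at −0.46 ± 0.74, −1.11 ± 1.90, −2.31 ± 3.55 and −1.51 ± 0.73 and was not called either.

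Where a called member had another kept probe, that probe had the same sign in 33 of 35 instances and was itself called in 21. The 2 of opposite sign were Cenpf in TRKA-TGF versus TRKA and the dimmest Mki67 probe in TRKA-TGF versus p75. In all, 54 calls of 22 members were made, and 17 tested members were called in no comparison.

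A further list of 121 cell cycle genes, 116 of them on the array and 109 tested, was counted for the same comparisons. In TRKA-TGF versus CD90, 19 of the 109 were lower and 1 higher, 12 of the lower ones among 39 mitosis genes, 2 among 35 replication genes and 5 among 35 cyclins and regulators. The share lower was 17.4%, against 7.19% of all genes, with 30.8% of the mitosis genes, 5.71% of the replication genes and 14.3% of the cyclins and regulators. In TRKA-TGF versus p75, 12 were lower and 1 higher, a lower share of 11% against 7.15% of all genes. The kinetochore subunit Spc24 was among those lower in both comparisons, with differences of −6.86 and −6.84, and was well above background on 1 TRKA-TGF array. The 1 gene higher in both was Cdt1, which licenses replication origins and was measured on 2 p75 arrays (1.57 and 2.16). Lower with Spc24 in CD90's comparison were Cdc6, a licensing factor, at least 53.9-fold, and Ckap2 (−6.28), and in that with p75 Hmmr, at least 17.3-fold, and Ckap2 (−4.76), both proteins of the spindle. Ckap2 was well above background on 1 TRKA-TGF array.

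In TRKA versus p75, 23 of the 109 were lower (21.1%, against 16.9% of all genes) and 8 higher (7.34% against 18.8%). In TRKA versus CD90, 35 were lower (32.1% against 16.6%) and 7 higher (6.42% against 18.3%). These counts move with the scaling, as an alternative added after seeing the data showed. With scaling on the detected probes they were 34 lower and 5 higher against p75 and 52 and 5 against CD90, with normexp 16 and 12, and 28 and 8, and with quantile normalization or the authors' deposited values 18 and 10, and 34 and 10. Over all 20571 genes, the calls against p75 were 7320 (20.7% higher), 8740 (66.6%) and 8603 (60.3%, quantile normalization). Against CD90 they were 8190 (18.7%), 7324 (62.3%) and 8541 (59.8%). Under these settings the list's lower share against p75 lay close to that of all genes, and against CD90 above it. Of the 39 mitosis genes, 17 were lower in TRKA than in CD90 (43.6% against 16.6% of all genes) and 0 higher. Compared with p75, 6 were lower (15.4% against 16.9%) and 1 higher (2.56% against 18.8%). Of the 35 replication genes, 10 were lower and 4 higher than in p75 (28.6% and 11.4%, against 16.9% and 18.8% of all genes). Relative to CD90, 10 were lower and 3 higher (28.6% and 8.57%, against 16.6% and 18.3% of all genes). The higher ones included the DNA ligase Lig1 (3.39), the flap endonuclease Fen1 (3.26 against p75 and 2.67 against CD90) and the chromatin assembly factor Chaf1b (3.04). Against CD90, the antiproliferative genes Btg1 (3.03) and Btg2 (3.1) were also higher. The lower ones included Cdc25c, the phosphatase that activates Cdk1, at least 96.2-fold lower than in p75 and 125-fold lower than in CD90. Kif22, a chromosome motor, was at least 78.4-fold lower than in p75, and Dut, the dUTPase, differed by −6.43 with 1 TRKA array above background. Incenp, the scaffold of the chromosomal passenger complex, and the mitotic kinase Pbk were at least 173-fold and 88.5-fold lower than in CD90.

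TRKA-TGF versus TRKA gave 14 genes higher and 14 lower of 109, or 12.8% in each direction, near the background of 13.5% and 12.9%. With scaling on the detected probes these were 20 higher and 11 lower, and with normexp 9 and 16. The split of calls over all genes moved the same way under both settings, as given above. Higher were the retinoblastoma gene Rb1 (6.25, 2 TRKA arrays above background), the polymerase subunit Pola1 (at least 29.9-fold) and Cdc25c (at least 38.5-fold). Lower were Spc24 (−7.74), Btg2 (−5.06) and the securin gene Pttg1 (−4.87). CD90 versus p75 had 2 higher, the regulator Mybl2 (4.01, 3 p75 arrays above background) and Sgo1, a guardian of centromere cohesion (3.6, 1 p75 array above background), and 1 lower, Btg1 (−2.71). The shares, 1.8% higher and 0.92% lower, were below the 3.68% and 3.57% of all genes, so this count is no result about the list. The largest adjusted p among the genes named in these paragraphs was 0.0416 (limma, Benjamini-Hochberg).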

How the data were processed

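RNA from 16 samples, 4 each of CD90, p75, TRKA and TRKA-TGF cells, was amplified by PCR and hybridised with Cy3 on 1-colour rat arrays, per the labels' protocols. The deposited scanner files hold processed spot intensity on a linear scale, background-subtracted by the scanner software, and a flag score of 0 or 1 for spots well above background, per the file headers. Agilent Feature Extraction carries version 10.7.3.1 per the file headers, whereas the notes on processing by the submitters name 10.5. The authors also deposited log2 values, found here to be quantile-normalized and centred per probe on the median of the 16 arrays (slope 1.00 against such values); they served as an alternative only. Groups and replicate numbers came from the sample titles.

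Outlier spots were dropped, spots of a probe averaged, and log2 signal taken minus each array's 75th percentile. Probes well above background on at least 4 of 16 arrays were kept, and a gene took its brightest kept probe, which gave 20571 genes. Of 30367 probes, 18355 were named by RefSeq accession, 2758 by symbol and 422 by synonym (GRCr8 gene list of RefSeq), and 8832 kept the file's name. limma 3.58.1 (R 4.3.3) fitted 1 mean per group to all 16 arrays, with Benjamini-Hochberg adjustment over all genes. The fit was first tested on simulated data, in which few genes changed, 50 at each size. In TRKA versus p75 it recovered 8%, 18%, 56% and 78% of those changed by 1, 2, 4 and 6 log2 units. In the data 7352 genes were called in that comparison, far more than were changed in the simulation, so these rates need not hold there. A gene that was not called may still differ. The number of arrays, 4 per group, limits the precision. The labels call the 4 arrays of a group biological replicates and do not say whether they came from separate animals or cultures.

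All 41 members may be named; those called at least once and Mki67, Top2a, Pcna, Ccnd1, Ccnd2, Ccnb1, Cdk1, Cdkn1a and Cdkn1b are given on every array, and of the further list up to 3 called genes per direction and comparison with the largest fitted difference. Members, lists and tests were chosen with earlier results of these data known. Alternatives were other scalings, background correction, filters, probe averaging, fits and arrays left out. Equal replicate numbers gave little sign of a pairing of the arrays: the correlations of deviations from the group means ran from −0.03 to 0.04 over 24 pairs. Between TRKA and TRKA-TGF, each TRKA array correlated best with the TRKA-TGF array of its own number, though only at 0.01 to 0.04. Promoters were searched and figures drawn in Python 3.11.15 with matplotlib 3.10.9. Not used here: any genome of the array's own build. A check of 1 sorting marker is not reported here.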

Additional observations from a re-analysis of the deposited data

Results flagged for a closer look

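Of 96 groups of 4 arrays (24 members in 4 populations), 9 held an array far from the other 3 by Dixon's criterion, where chance alone gives about 5%. Of these 9, 5 were TRKA-TGF arrays that alone, of the 4, read a gene well above background. TRKA-TGF replicate 4 read −4.17 for Ccnb1 (others −7.61 to −7.44), −4.38 for Cdca3 (others −8.05 to −7.72) and −3.15 for Foxm1 (others −7.15 to −6.48). TRKA-TGF replicate 2 read −4.21 for Top2a (others −8.03 to −7.46), and replicate 3 read −3.11 for Ttk (others −8.24 to −7.66).

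In TRKA, replicate 2 alone measured Rrm1, at 0.97 (others −7.94 to −7.44). Cdca3 was lowest on CD90 replicate 4, at −1.27 (others 0.64 to 0.94). In p75, Top2a was highest on replicate 4, at −1.38 (others −3.42 to −3.17), and Pcna on replicate 1, at 0.99 (others 0.39 to 0.49).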

How the results depend on the processing

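Of the 54 member calls, 27 held under all 20 alternatives run for each, 27 were lost under at least 1, and 0 changed direction; among all member differences, Ccnd1 in TRKA versus CD90 alone turned to a call of the other sign, −0.84, with scaling on the probes detected on all arrays. The 2 calls of CD90 versus p75 became 4 with normexp, quantile normalization, the authors' deposited values or the mean of kept probes, and 5 with array weights or with only these groups in the fit. The 9 calls of TRKA versus p75 became 5 with only these groups in the fit, and the 12 of TRKA versus CD90 became 6 with array weights. Leaving out single arrays gave 1 to 2 calls in CD90 versus p75, the 1 without p75 replicate 2 or 4 or CD90 replicate 2 or 3; 7 to 11 in TRKA versus p75; 11 to 15 in TRKA versus CD90; 5 to 10 in TRKA-TGF versus TRKA, the 5 without TRKA-TGF replicate 2; 6 to 8 in TRKA-TGF versus p75; and 10 to 14 in TRKA-TGF versus CD90. With the replicate block, the counts were 2, 8, 11, 8, 7 and 13 in that order. The data gave little sign of such a pairing: 9 of 24 pairs correlated best with their own number, among them those of TRKA with TRKA-TGF. The stricter filter at 8 arrays, the intensity trend and outlier spots kept ended 0 of the 54 calls, and only the groups compared ended 15. Why these settings differ was not tested. Dim signal limits the TRKA and TRKA-TGF values: 15 and 19 of 39 members were well above background on all 4 arrays.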
